A study of Mus musculus with 8 samples.

Results

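A set of 9 genes that are known or proposed targets of p53 in DNA repair, metabolism and redox control were followed in mouse spleen cells: Polk, Ddb2, Ei24, Ephx1, Gpx1, Dcxr, Slc19a2, Ddit4 and Trim7. Their probes were found by gene symbol, and 13 of the 24613 probes on the arrays carried one of these symbols. The genes themselves were chosen with earlier results of these data known. Ddb2 had 5 probes and each other gene had 1. All 9 genes were detected on at least 1 array and so were among the 7456 genes tested.

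Cells came from spleens of C57BL/6 mice aged 5 to 6 weeks, with the spleens of 4 mice pooled. The mice were wild type (WT), p53 null, or Δ122p53, a genotype whose p53 lacks the N-terminal part. The 8 arrays were a WT control, WT amsacrine, 2 p53-null controls, p53-null amsacrine, p53-null irradiated, a Δ122p53 control and Δ122p53 amsacrine. Amsacrine, a topoisomerase II poison that leaves DNA breaks, was given at 1 µg per mL for 5 hours against a carrier control of 30% ethanol, and irradiation was 4 Gy of gamma rays against untreated cells. The labels do not say which kind of control each control array held, nor how long after irradiation cells were harvested. Only the p53-null control had 2 arrays, and every other group had 1. Nothing says that this pair came from separate cultures or held the same kind of control. The p-values thus rest on an array-to-array spread that may be technical or may hold a difference between kinds of control. The p53-null responses use the mean of this pair. The probed genes did not include the p53 gene itself (0 probes for Trp53), so its level could not check the genotypes.

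The tumour suppressor p53 is a transcription factor that is stabilised by DNA damage, binds paired copies of a short half-site near its target genes and raises their transcription. Its best known targets stop the cell cycle or kill the cell, and others repair DNA, limit growth signals, supply cofactors or remove peroxides. In spleen, lymphocytes die readily by p53 after DNA breaks. A target can also be moved by other stress factors, so comparison with cells lacking p53 shows which differences are seen without it.

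The sequence before the start of a gene shows whether a half-site lies close by. RefSeq promoter windows (build GRCm38.p6, 250 bases before to 50 after the start) were matched by symbol for 8 of the 9 genes, all but Ddb2, giving 10 windows. Both strands were searched for the p53 half-site consensus with no mismatch, which 8.36% of all 32851 windows held. It was found in 2 of the 10, those of Polk and Ei24, and the Polk window held it as part of a pair of half-sites with 1 mismatch and a spacer of 1 base (1.09% of all windows). The hypoxia response core ACGTG, read on either strand, was in 3 of the 10, against 19.6% of all windows. These were the windows of Gpx1, Ddit4 and 1 of the 2 for Trim7. Windows of 4 genes that were at least 2-fold higher in treated WT cells are given here, 5′ to 3′ on the gene's strand. Capitals mark the half-site in Polk (chr13:96519138-96519437, minus strand, 231 bases before the start) and in Ei24 (chr9:36797285-36797584, minus strand, 10 bases before the start). In Ddit4 (chr10:59951721-59952020, minus strand) they mark the hypoxia core, 187 bases before the start. Slc19a2 (chr1:164248796-164249095, plus strand) held neither motif. The Polk window is that of the more downstream of its 2 annotated starts.
Polk: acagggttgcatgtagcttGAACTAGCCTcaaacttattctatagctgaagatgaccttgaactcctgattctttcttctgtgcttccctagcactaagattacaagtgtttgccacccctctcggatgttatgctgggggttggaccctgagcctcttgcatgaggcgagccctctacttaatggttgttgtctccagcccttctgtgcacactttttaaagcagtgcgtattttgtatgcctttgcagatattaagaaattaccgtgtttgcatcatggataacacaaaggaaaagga
Ei24: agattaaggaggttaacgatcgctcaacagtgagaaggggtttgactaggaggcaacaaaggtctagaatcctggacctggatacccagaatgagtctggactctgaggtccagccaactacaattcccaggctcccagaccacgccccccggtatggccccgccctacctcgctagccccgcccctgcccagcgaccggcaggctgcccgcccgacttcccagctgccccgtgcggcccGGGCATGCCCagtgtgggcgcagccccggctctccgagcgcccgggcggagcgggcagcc
Ddit4: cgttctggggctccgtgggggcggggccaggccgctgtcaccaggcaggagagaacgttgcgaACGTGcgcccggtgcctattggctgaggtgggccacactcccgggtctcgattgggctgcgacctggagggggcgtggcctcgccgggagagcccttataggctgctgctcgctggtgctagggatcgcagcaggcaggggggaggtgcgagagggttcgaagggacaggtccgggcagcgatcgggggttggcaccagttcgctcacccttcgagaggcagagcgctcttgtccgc
Slc19a2: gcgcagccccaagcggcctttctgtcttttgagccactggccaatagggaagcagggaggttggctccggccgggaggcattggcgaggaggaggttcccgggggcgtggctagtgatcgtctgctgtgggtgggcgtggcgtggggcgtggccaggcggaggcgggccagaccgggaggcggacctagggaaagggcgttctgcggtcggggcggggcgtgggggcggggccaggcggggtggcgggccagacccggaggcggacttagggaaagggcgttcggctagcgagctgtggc
A match is a description of the letters in the window and not of binding.

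In WT cells amsacrine went with higher levels of 6 of the 9 genes, and in p53-null and Δ122p53 cells none of the 9 was at least 2-fold higher. The 6 were Polk, Ddb2, Ei24, Slc19a2, Ddit4 and Trim7, each at least 2-fold higher on the WT amsacrine array than on the WT control, whereas 9.75% of all genes tested were that much higher. Counts use fitted values and include genes not detected on 1 side, but with such genes held at their bounds the same count was 6, and 8.54% of all genes. At least 2-fold higher in p53-null cells were 6.09% of all genes, and in Δ122p53 cells 3.38%. The pattern of being at least 2-fold higher in WT and in neither other genotype was held by these 6 genes and by 5.95% of all genes. As the 9 genes were chosen with earlier results of these data known, setting them beside all genes is a description and not a test. Gpx1 was at least 2-fold lower in WT cells (12.2% of all genes) and Ephx1 was also lower there, by less than 2-fold. Dcxr was little different.

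In the other direction, Ephx1 and Gpx1 were at least 2-fold lower after amsacrine without p53 (2 of the 9, and 6.53% of all genes with undetected genes at their bounds). By fitted values 4 of the 9 were (8.41% of all genes), but Dcxr and Trim7 were not detected on the treated array and have bounds of at least 1.79-fold and 1.16-fold lower. In Δ122p53 cells Ephx1 was at least 2-fold lower (3.97% of all genes). The median response of the 9 genes was 1.90 (log2) in WT, -0.75 in p53-null and -0.31 in Δ122p53 cells, beside 0.05, 0.02 and 0.00 for all genes. These medians hold fitted values against undetected signals, and with such genes at their bounds they were 1.46, -0.22 and -0.13. None of these responses passed an adjusted p of 0.05 in limma, with smallest values among the 9 genes of 0.0895 in WT, 0.0994 in p53-null and 0.500 in Δ122p53 cells. Over all 7456 genes limma called 0, 10 (0.134%) and 0 genes, and 1467, 1285 and 512 had an unadjusted p under 0.05.

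**Figure D1:**
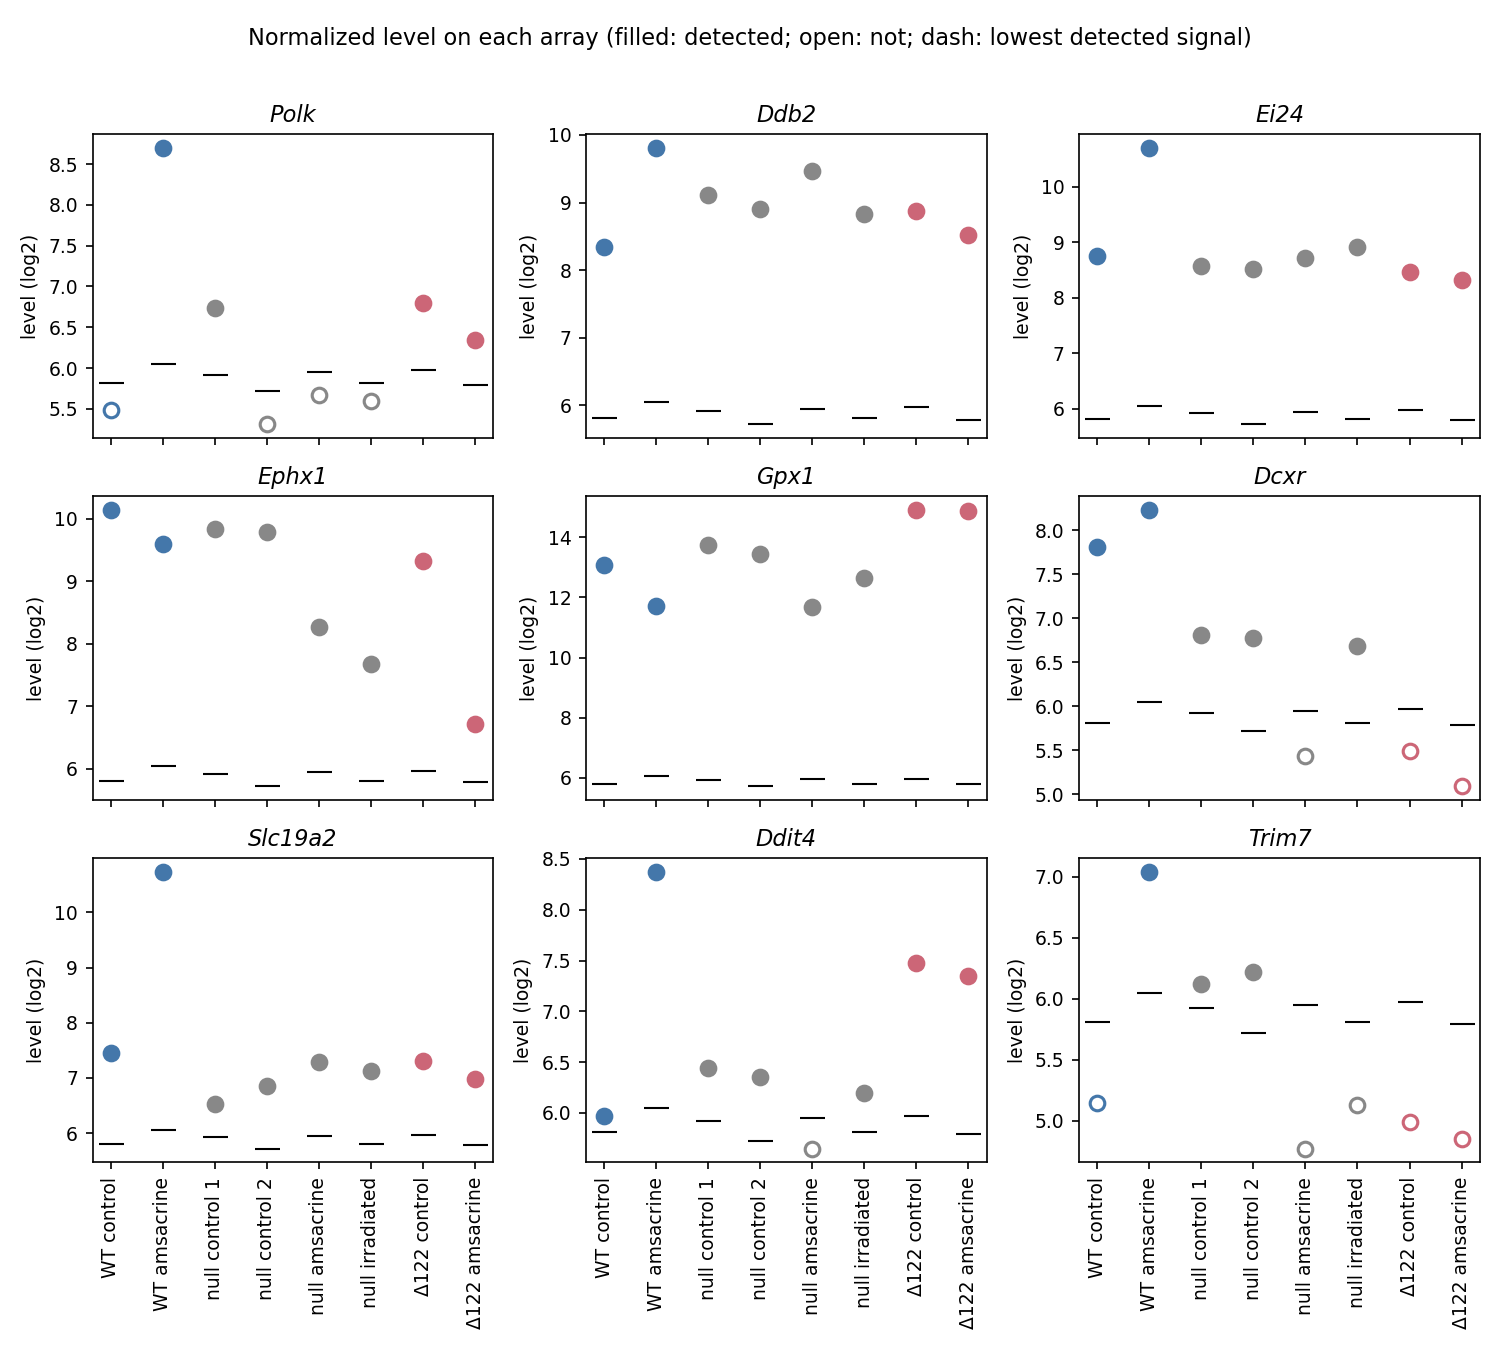
Normalized level (log2) of each gene on each of the 8 arrays, with the brightest probe for Ddb2. Filled points were detected, open points were not, and dashes mark the lowest detected signal on that array. The WT amsacrine array is the highest for Polk, Ddb2, Ei24, Dcxr, Slc19a2, Ddit4 and Trim7, while Gpx1 is highest on the Δ122p53 arrays.

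Among the repair genes, Polk encodes DNA polymerase kappa, which copies past bulky lesions during translesion synthesis. Its normalized level (log2) was 5.49 on the WT control and 8.70 on the WT amsacrine array, 6.73 and 5.31 on the 2 p53-null controls, 5.67 and 5.59 on the p53-null amsacrine and irradiated arrays, and 6.80 and 6.34 on the Δ122p53 control and amsacrine arrays. It was detected on 4 arrays (WT amsacrine, the first p53-null control and both Δ122p53 arrays), and the WT amsacrine array stood above the other 7. Since the WT control was not detected, the WT response has a bound of at least 7.40-fold higher (adjusted p = 0.111). This bound sets the treated level against the lowest detected signal.

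The p53-null controls differed from each other by 1.42 for Polk, the widest gap among the 9 genes, where the median gap over all genes was 0.30 and 6.69% of genes differed at least 2-fold. Polk was not detected on the second p53-null control or on either treated p53-null array, so no direction is read from its fitted p53-null response of -0.34 ± 0.61 (SE). In Δ122p53 cells, where both arrays detected it, the response was -0.46 ± 0.70. The Δ122p53 control had at least 1.99-fold more Polk signal than the WT control (adjusted p = 0.296).

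Ddb2 encodes the damage-binding subunit that recognises ultraviolet lesions for nucleotide excision repair, and in human cells is an established p53 target. On its brightest probe the level was 8.35 and 9.81 on the WT control and amsacrine arrays, 9.11 and 8.90 on the p53-null controls, 9.47 on p53-null amsacrine, 8.83 on p53-null irradiated, and 8.88 and 8.52 on Δ122p53 control and amsacrine. The WT control was the lowest of the 8 arrays and WT amsacrine the highest, but only by a small margin over p53-null amsacrine. Before normalization p53-null amsacrine had a higher signal than WT amsacrine (805.5 against 727.6). Δ122p53 amsacrine (357.5) then lay below the WT control (380.6). The response was 1.46 ± 0.39 in WT (adjusted p = 0.144), 0.46 ± 0.33 in p53-null and -0.37 ± 0.39 in Δ122p53 cells.

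The other Ddb2 probes did not all follow the brightest one. The second probe ran from 6.84 to 7.73 in WT and from 8.23 and 7.25 to 8.61 in p53-null cells, with responses of 0.89 ± 0.56 and 0.87 ± 0.49. On that probe the WT and p53-null responses were alike in size, and Δ122p53 cells had -0.94 ± 0.56. The third probe had -0.41 ± 0.49 in WT, 0.24 ± 0.42 in p53-null and 0.56 ± 0.49 in Δ122p53 cells. The fourth was detected on 3 arrays, none of them WT, and the fifth on 0 arrays. With the mean of the detected probes in place of the brightest one, the WT response was 0.65 and its excess over the p53-null response 0.02. Placing Ddb2 among the genes higher in WT alone thus depends on the brightest probe.

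**Figure D2:**
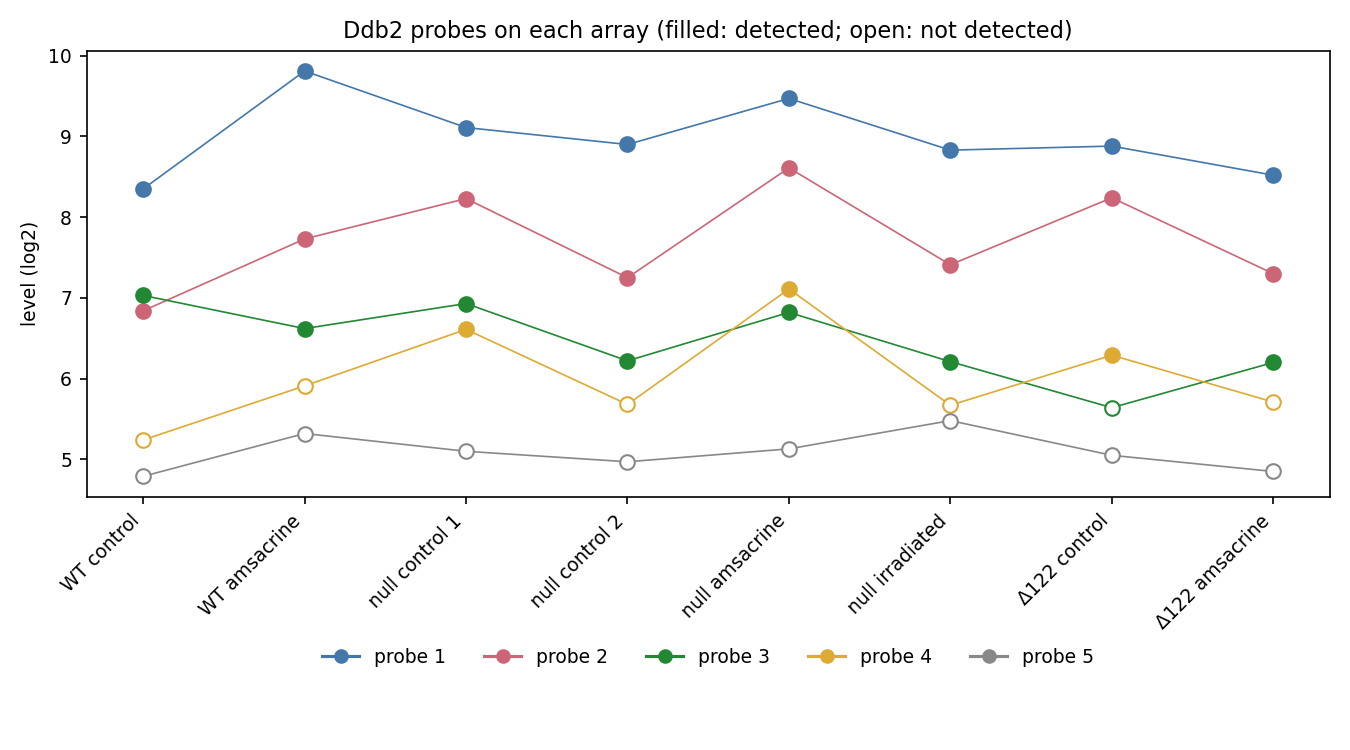
Normalized level (log2) of the 5 Ddb2 probes on the 8 arrays, numbered from the brightest. Filled points were detected and open points were not, and lines join points of 1 probe and show no order in time. Probe 1 is highest on WT amsacrine (9.81), while probes 2 and 4 are highest on p53-null amsacrine (8.61 and 7.11).

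Ei24 encodes a membrane protein of the endoplasmic reticulum, found first as a p53-induced gene and later tied to autophagy. Its level was 8.75 on the WT control and 10.70 on WT amsacrine, and on the other 6 arrays it lay between 8.32 (Δ122p53 amsacrine) and 8.92 (p53-null irradiated), with the p53-null controls at 8.58 and 8.52. The WT amsacrine array stood alone, and the other 7 arrays were within a narrow band. The response was 1.95 ± 0.38 in WT (adjusted p = 0.100), 0.16 ± 0.33 in p53-null and -0.13 ± 0.38 in Δ122p53 cells. Before normalization the WT probe signal went from 501.5 to 1300.

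Of the metabolic genes, Slc19a2 encodes a thiamine transporter of the plasma membrane, which brings in the vitamin that pyruvate dehydrogenase and transketolase use as a cofactor. Its level was 7.46 on the WT control and 10.73 on WT amsacrine, 6.52 and 6.86 on the p53-null controls, 7.28 on p53-null amsacrine, 7.12 on p53-null irradiated, and 7.30 and 6.98 on Δ122p53 control and amsacrine. It was detected on all 8 arrays, and again WT amsacrine stood alone. The response was 3.27 ± 0.40 in WT (9.65-fold, adjusted p = 0.0895, 95% interval 2.28 to 4.26), which ranked 10 among 7456 genes. In p53-null cells it was 0.59 ± 0.35 and in Δ122p53 cells -0.31 ± 0.40. Both p53-null treated arrays lay above both p53-null controls, by less than 2-fold.

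Ddit4, also called REDD1, encodes an inhibitor of the growth kinase complex mTORC1 and is induced by p53, by low oxygen and by glucocorticoids. Its level was 5.97 on the WT control and 8.37 on WT amsacrine, 6.44 and 6.35 on the p53-null controls, 5.65 (not detected) on p53-null amsacrine, 6.20 on p53-null irradiated, and 7.48 and 7.35 on Δ122p53 control and amsacrine. The Δ122p53 arrays were above every WT control and p53-null array, and WT amsacrine was higher still. The response was 2.40 ± 0.38 in WT (adjusted p = 0.0895), at least 1.36-fold lower in p53-null cells, and -0.12 ± 0.38 in Δ122p53 cells. Against the WT control, the Δ122p53 control was higher by 1.51 ± 0.38 (adjusted p = 0.0858). In the same comparison hypoxia response genes had a median of 1.51, with 12 of 13 higher and 3 called, and integrated stress response genes a median of 1.25, with 13 of 15 higher and 4 called. Their part in the Ddit4 level was not tested.

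Trim7 encodes a ubiquitin ligase that binds glycogenin, the primer of glycogen synthesis. It was detected on 3 arrays, WT amsacrine at 7.04 and the p53-null controls at 6.12 and 6.22, and on the other 5 it lay between 4.77 and 5.14, below the lowest detected signal. It was at least 2.34-fold higher after amsacrine in WT cells (adjusted p = 0.104) and at least 1.16-fold lower in p53-null cells. Both Δ122p53 arrays were below detection, so no response is given there. The direction in p53-null cells was thus opposite to that in WT cells, but near the limit of detection, and its level on the p53-null controls was at least 1.28-fold above the WT control.

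Among the redox and detoxification genes, Ephx1 encodes microsomal epoxide hydrolase, which opens reactive epoxides into diols. Its level was 10.14 and 9.59 on WT control and amsacrine, 9.83 and 9.78 on the p53-null controls, 8.27 on p53-null amsacrine, 7.67 on p53-null irradiated, and 9.32 and 6.71 on Δ122p53 control and amsacrine. Each treated array was below the control of its own genotype, and the treated p53-null and Δ122p53 arrays were below every control array. The amsacrine response was -0.55 ± 0.38 in WT, -1.53 ± 0.33 in p53-null (adjusted p = 0.118) and -2.61 ± 0.38 in Δ122p53 cells (unadjusted p = 0.000519 and adjusted p = 0.500 by limma). In the Δ122p53 response 2 of the 7456 genes had a lower value than Ephx1. An additive model of genotype and amsacrine fits a single amsacrine difference to the 3 genotypes, whose own responses ran from -0.55 to -2.61. This fitted difference was -1.56 ± 0.35 (adjusted p = 0.0689 by limma, 2.07% of all genes called).

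Gpx1 encodes glutathione peroxidase 1, a selenoprotein that reduces hydrogen peroxide with glutathione. Its level was 13.07 and 11.71 on WT control and amsacrine, 13.74 and 13.43 on the p53-null controls, 11.68 on p53-null amsacrine, 12.64 on p53-null irradiated, and 14.91 and 14.88 on Δ122p53 control and amsacrine. The Δ122p53 arrays were highest and alike, and both other amsacrine arrays were lowest and alike. The response was -1.35 ± 0.40 in WT (adjusted p = 0.170), -1.91 ± 0.34 in p53-null (adjusted p = 0.0994) and -0.03 ± 0.40 in Δ122p53 cells. In the signals before normalization, Gpx1 was 4.45-fold lower in WT and 4.28-fold lower in p53-null cells, which is further than the normalized values place it in WT cells.

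Dcxr encodes dicarbonyl and L-xylulose reductase, which reduces reactive dicarbonyls and sugars. Its level was 7.81 and 8.23 on WT control and amsacrine, 6.81 and 6.78 on the p53-null controls, 5.43 (not detected) on p53-null amsacrine and 6.69 on p53-null irradiated, and it was not detected on the Δ122p53 arrays (5.49 and 5.09). The WT arrays were highest, the p53-null controls lower and the Δ122p53 arrays below detection. On the control arrays this order rests on 1 WT and 1 Δ122p53 array, and its cause was not tested. The response was 0.42 ± 0.38 in WT cells, and in p53-null cells the gene was at least 1.79-fold lower after amsacrine. Before normalization the WT signal was 273.7 on the control and 268.2 on the amsacrine array. The p53-null controls were lower than the WT control by -1.01 ± 0.33 (adjusted p = 0.724). The Δ122p53 control was at least 3.57-fold lower than the WT control (adjusted p = 0.0413, 3.1% of all genes called), the single call among the 9 genes on control arrays. The call was kept in 2 of the 7 other settings with a test (median centring and the mean of probes), and over all 7 the adjusted p ran from 0.0254 to 0.138.

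**Figure D3:**
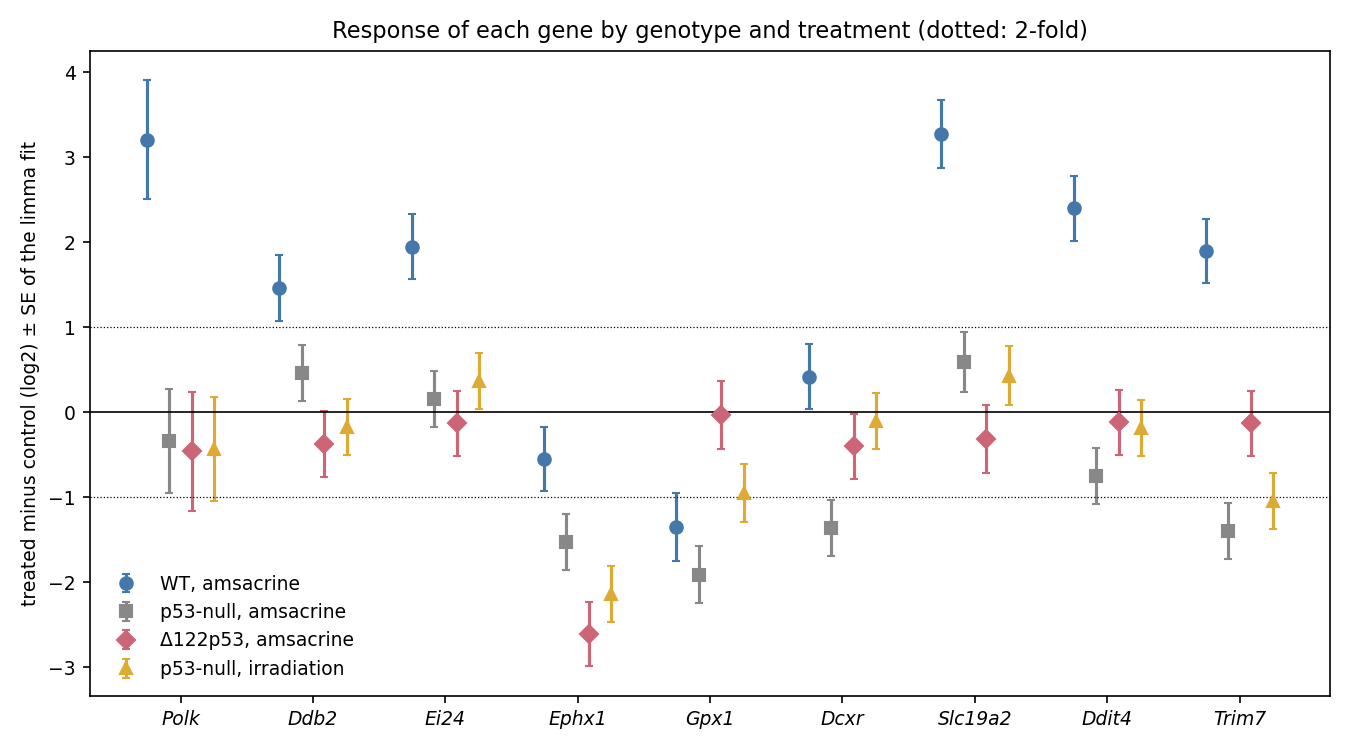
Difference of treated minus control (log2) ± the SE of the limma fit for the 9 genes, by genotype and treatment. Dotted lines mark a 2-fold difference. For genes not detected on 1 or both sides the plotted value is not exact. Slc19a2 (3.27) and Polk (3.21) have the largest WT values, and Ephx1 lies below 0 in each of the 4 responses.

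The difference between the WT and p53-null responses was tested gene by gene. It was above 0 for all 9 genes, where 51.2% of all genes were, and by fitted values at least 2-fold for 6 (3% of all genes): Polk (3.55 ± 0.93), Trim7 (3.30 ± 0.50), Ddit4 (3.15 ± 0.50), Slc19a2 (2.68 ± 0.53), Ei24 (1.79 ± 0.50) and Dcxr (1.78 ± 0.50). For Polk, Trim7, Ddit4 and Dcxr an array in the difference was below detection, so its size is not exact. Ddb2 had 1.00 ± 0.51, Ephx1 0.98 ± 0.50 and Gpx1 0.55 ± 0.52. In limma 0 of the 7456 genes passed (smallest adjusted p 0.647, 113 genes at an unadjusted p under 0.05), and the adjusted p of each of the 9 genes was 1. No gene of the 9 is therefore shown to respond differently with and without p53.

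Dcxr was lower in treated p53-null cells and little different in WT cells, and for Gpx1 and Ephx1 both genotypes were lower after the drug. By fitted values, WT minus Δ122p53 was at least 2-fold above 0 for 7 genes (12.2% of all genes), with Slc19a2 at 3.58 ± 0.57 (adjusted p = 0.332). Gpx1 had -1.33 ± 0.56. The 7 include Polk and Trim7, which were not detected on every array in the difference, so its size is not exact for them. Of the WT minus Δ122p53 differences limma called 0 over all genes, with 804 at an unadjusted p under 0.05.

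**Figure D4:**
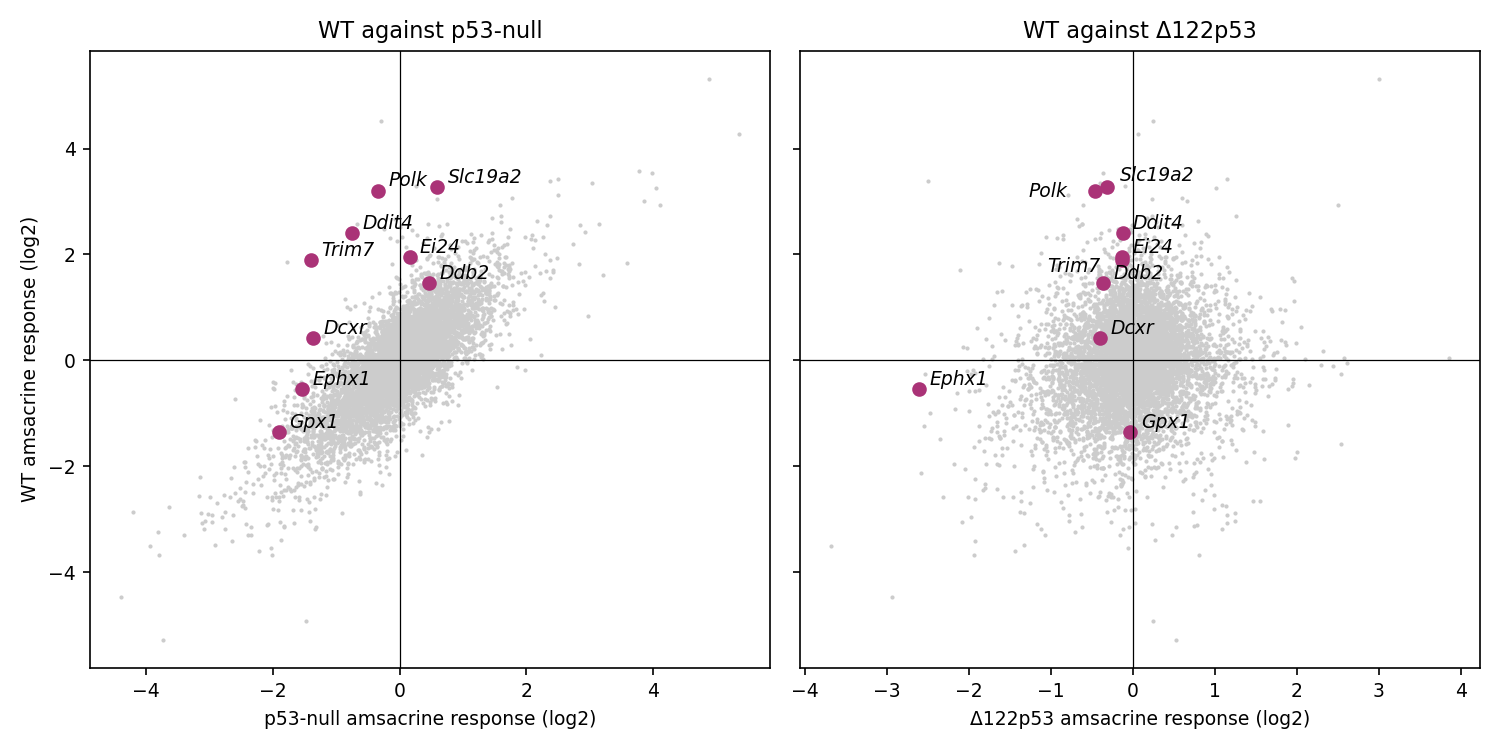
WT amsacrine response (vertical, log2) against the p53-null response (left) and the Δ122p53 response (right), for 7456 genes in grey and the 9 genes in colour. Slc19a2, Polk, Ddit4, Ei24 and Trim7 lie high on the vertical axis with p53-null values between -1.40 and 0.59, and Ephx1 lies at -2.61 on the Δ122p53 axis.

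On the amsacrine arrays themselves, p53-null cells were at least 2-fold below WT cells for 7 of the 9 genes, against 2.53% of all genes. Slc19a2 was lower by -3.45 ± 0.40 (adjusted p = 0.412), Ei24 by -1.99 ± 0.38 and Ephx1 by -1.32 ± 0.38. The 4 genes below detection in the treated p53-null cells have bounds: Polk was at least 6.72-fold, Ddit4 5.34-fold, Dcxr 4.84-fold and Trim7 2.13-fold lower. Ddb2 (-0.34 ± 0.39) and Gpx1 (-0.04 ± 0.40) were close to WT. None passed in limma, where 0 genes were called over all and 321 had an unadjusted p under 0.05.

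Δ122p53 cells given amsacrine differed from WT cells given amsacrine in 6 of the 9 genes at an adjusted p under 0.05, beside 4.09% of all genes. Slc19a2 was lower by -3.75 ± 0.40 (adjusted p = 0.0120), Ephx1 by -2.89 ± 0.38 (adjusted p = 0.0190) and Ei24 by -2.38 ± 0.38 (adjusted p = 0.0320). Dcxr was at least 5.41-fold lower (adjusted p = 0.0142) and Trim7 at least 2.38-fold lower (adjusted p = 0.0406). Gpx1 was higher by 3.17 ± 0.40 (adjusted p = 0.0169). Polk (-2.36 ± 0.70), Ddb2 (-1.29 ± 0.39) and Ddit4 (-1.01 ± 0.38) did not pass. These 6 calls fell to 0 in the authors' value table, with cyclic loess and with no detection filter, where these 6 genes kept their directions. Among the other settings with a test, the call was kept in 1 of 7 for Trim7, 4 of 7 for Dcxr and 4 of 8 for Ei24. For Slc19a2, Ephx1 and Gpx1 it was kept in 5 of 8 each.

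These arrays also differed in erythroid markers, of which 12 of 16 were measured. Their median level was 10.35 and 10.46 on the Δ122p53 control and amsacrine arrays, where all 12 were detected, against 7.09 and 5.10 on WT control and amsacrine (7 and 4 detected) and 4.95 to 6.15 on the p53-null arrays (4 to 6 detected). Of the 12, 9 were called higher on Δ122p53 amsacrine than on WT amsacrine, with a median of 4.81 (3.97 with undetected genes at their bounds). In the same comparison 10 of 11 mitotic genes were called higher (median 3.55, or 3.16 with bounds). T cell genes had a median of -1.40 (7 of 11 at least 2-fold lower, 1 called), NK cell genes -1.64 (6 of 7 at least 2-fold lower, 1 called) and macrophage genes -1.23 (6 of 11 at least 2-fold lower, 0 called). Hypoxia genes had a median of 1.42, with 10 of 13 at least 2-fold higher and 1 called. Gpx1 was highest on the same 2 arrays, and the part of these lists in its level and in the other calls was not tested. In bulk cells, fewer cells of a type and less RNA per cell cannot be told apart.

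Irradiation was given to p53-null cells alone. Of the 9 genes none was at least 2-fold higher (5.53% of all genes) and 1, Ephx1, was measured as at least 2-fold lower, at -2.14 ± 0.33 (adjusted p = 0.167). By fitted values Trim7 would make 2 (5.51% of all genes, 4.6% with bounds), but it was not detected after irradiation and was at least 1.28-fold lower. Gpx1 had -0.95 ± 0.34, Slc19a2 0.43 ± 0.35 and Ei24 0.37 ± 0.33. Dcxr (-0.10 ± 0.33), Ddit4 (-0.19 ± 0.33), Ddb2 (-0.17 ± 0.33) and Polk (-0.43 ± 0.61) were small beside their errors. Limma called 0 genes, with 1037 at an unadjusted p under 0.05. The p53-null amsacrine and irradiation responses share their 2 controls, so a common direction for Ephx1 is not independent evidence.

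The genes that moved most like each member were sought over the 8 arrays, among 4874 genes detected on all of them. These correlations describe 8 arrays that share the genotype groups, and say nothing of shared control. Ei24 was closest to Srprb (r = 0.987), Klhl21 (0.974) and Ccng1 (0.971), and Slc19a2 to Cep170b (0.977), Ccng1 (0.976) and Klhl21 (0.975). Ccng1, which encodes cyclin G1 and is itself a p53 target, was thus among the nearest to both. Ei24 and Slc19a2 correlated at r = 0.96 with each other. For both genes the WT amsacrine array stood alone, so their correlations lean heavily on that array. Gpx1 was closest to Tlr7 (0.992), E2f2 (0.992) and Trim30a (0.984), Ephx1 to Ap2a2 (0.97), Trpv2 (0.962) and Def6 (0.962), and Ddb2 to Ehmt1 (0.986), Il18r1 (0.982) and Hook3 (0.972).

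The reference p53 targets gave a scale for these responses. Mdm2, whose product marks p53 for degradation, was higher by 2.22 ± 0.38 in WT (adjusted p = 0.0895) against 0.36 ± 0.33 in p53-null and 0.05 ± 0.38 in Δ122p53 cells. Cdkn1a, the p21 cell cycle inhibitor, had 3.07 ± 1.31 in WT, 1.77 ± 1.13 in p53-null and 0.60 ± 1.31 in Δ122p53 cells. After irradiation of p53-null cells it had 2.40 ± 1.13. Cdkn1a was detected on 1 of the 2 p53-null controls, so its p53-null values are not exact. Among 20 measured feedback, arrest and death targets of p53, 13 were at least 2-fold higher in WT, 3 in p53-null and 1 in Δ122p53 cells, with medians of 1.24, 0.30 and 0.08. With undetected genes at their bounds, 11 were in WT, and the medians were 1.13, 0.23 and 0.00. The 2 with the largest WT values differed in p53-null cells: Phlda3, an inhibitor of Akt signalling, was detected on the WT amsacrine array alone, and Bcl2l11, which encodes the death protein Bim, had 3.34 ± 0.50 in WT and 3.04 ± 0.43 in p53-null cells.

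A wider list of p53 targets in repair, metabolism and redox did not share the high WT values. The members and this list were chosen with earlier results of these data known, so the contrast is a description and not a test. Of 17 measured of 28 listed, 3 were at least 2-fold higher in WT and 1 in p53-null cells, with medians of 0.01, 0.00 and -0.26 in WT, p53-null and Δ122p53 cells. With bounds 2 were in WT, and each median was 0.00. Ercc5, a nucleotide excision repair nuclease, had 1.13 ± 0.38 in WT and 0.12 ± 0.33 in p53-null cells. Prkab2, a subunit of the energy sensor AMPK, had 1.63 ± 0.52 and 1.62 ± 0.45 and was detected on 4 arrays. Translesion synthesis genes other than Polk (8 measured) had WT and p53-null medians of 0.05 each, and nucleotide excision repair genes other than Ddb2 (21 measured) 0.29 and 0.18. In those lists Poln, a translesion polymerase, had 1.70 ± 0.38 and 1.73 ± 0.33 but was detected on 2 arrays, and the sliding clamp gene Pcna -0.80 ± 0.58 and -0.06 ± 0.50. Gtf2h1, a TFIIH subunit, had 1.21 ± 0.42 and 0.74 ± 0.36, and Cetn2, a partner of the damage sensor Xpc, -1.23 ± 0.39 and -1.02 ± 0.33.

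Other stress lists were set beside the redox and metabolic genes. Nrf2 antioxidant genes (14 measured) had medians of 0.32 in WT, 0.55 in p53-null and 0.01 in Δ122p53 cells (0.07, 0.08 and 0.00 with bounds). Srxn1, sulfiredoxin, led with 2.55 ± 0.39, 2.85 ± 0.34 and 0.00 ± 0.39. The heme oxygenase gene Hmox1 had -1.68 ± 0.67 in WT and -0.40 ± 0.58 in p53-null cells. Glutathione peroxidases and peroxiredoxins other than Gpx1 (6 measured) had 0.13, 0.17 and 0.09. In WT, p53-null and Δ122p53 cells Gpx2 had 1.94 ± 0.42, 0.43 ± 0.36 and -0.19 ± 0.42. Prdx4 had -1.28 ± 0.45, -0.97 ± 0.39 and 0.52 ± 0.45. In WT cells Gpx2 thus lay in the direction opposite to Gpx1. Integrated stress response genes (15 measured) had medians of 1.12, 1.30 and 0.60 (0.33, 1.30 and 0.46 with bounds), with the pseudokinase gene Trib3 at 3.86 ± 0.33 in p53-null cells (adjusted p = 0.0342) and Atf3 at -2.36 ± 1.52 in WT cells. The hypoxia list (13 measured) had 0.13, 0.55 and -0.11. Vegfa had 1.61 ± 0.93 in WT and 3.21 ± 0.81 in p53-null cells, and P4ha1 1.29 ± 0.38 and 0.67 ± 0.33. The glucocorticoid list (8 measured) had -0.30, -0.07 and -0.13. Dusp1 had -1.80 ± 0.67 in WT and -1.48 ± 0.58 in p53-null cells, and Pik3ip1 1.85 ± 0.60 and 1.23 ± 0.52. On the Δ122p53 control and amsacrine arrays the hypoxia list had median levels of 9.75 and 9.52, against 6.99 to 7.71 on the other 6 arrays.

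Cell type markers moved with the treatments as well. From WT control to WT amsacrine the monocyte and macrophage median (11 measured of 15) went from 9.85 to 7.85 and the B cell median (8 of 12) from 10.29 to 9.20. On the p53-null arrays the macrophage median was 8.98 and 9.17 for controls, 8.22 after amsacrine and 8.20 after irradiation, and on the Δ122p53 arrays 7.26 and 7.35. Macrophage responses had medians of -1.93 in WT, -1.24 in p53-null and 0.09 in Δ122p53 cells, and -1.99 after irradiation, and B cell medians were -1.72, -1.44 and -1.48, and -0.92 after irradiation. Gpx1 was lower after amsacrine in WT and p53-null cells, as the macrophage markers were, and Ephx1 was lower in each genotype, as the B and T cell markers were. They did not run alike throughout. Gpx1 was highest on the Δ122p53 arrays, where the macrophage median was lowest. After amsacrine Ephx1 was lowered least in WT cells, where the B cell median was lowered most. The part of these markers in either result was not tested.

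T cell responses had medians of -0.51, -0.63 and -0.58 in WT, p53-null and Δ122p53 cells, NK cell medians 0.13, -0.59 and -0.24, neutrophil medians -0.66, -1.18 and -0.30, and erythroid medians -0.49, -0.23 and 0.08 (0.00, 0.00 and 0.08 with bounds). Mitotic genes had -1.32, -1.25 and 0.65 (-1.06, -0.66 and 0.65 with bounds). The lymphocyte markers of spleen were present on every array, with 7 or more of the 8 B cell genes detected on 7 arrays and 6 on the Δ122p53 amsacrine array.

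How the arrays were scaled moved the size of the WT responses but not the sign of any of the 9. Median centring in place of quantile normalization lowered the median WT response of all genes to -0.28, and with it Ephx1 was at -1.06, Gpx1 at -2.10 and Dcxr at 0.08 in WT cells. The 6 genes higher in WT stayed at least 2-fold higher under each scaling of the intensities. In the authors' value table the WT responses were smaller, with Slc19a2 at 2.51, Polk at 1.46, Ddit4 at 1.11 and Trim7 at 0.57.

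**Figure D5:**
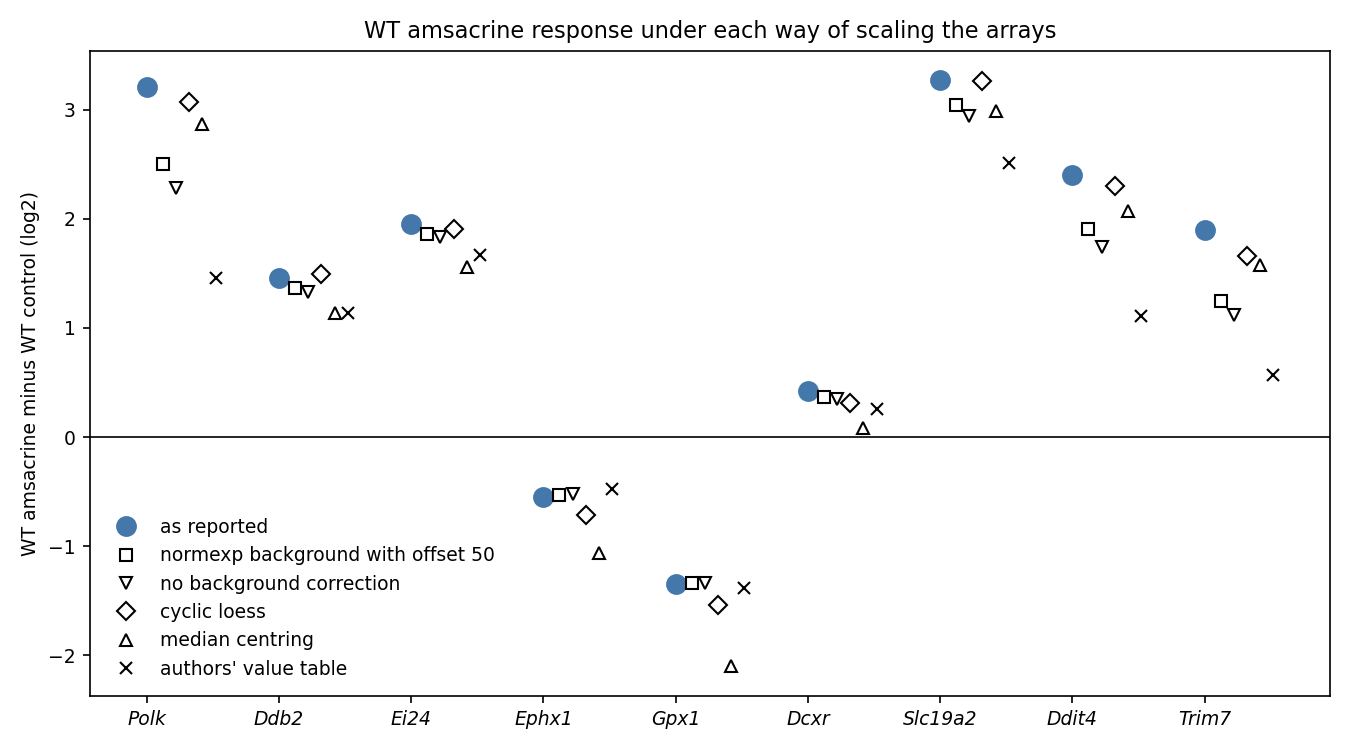
WT amsacrine response (log2) of the 9 genes as reported (blue) and with 5 other ways of correcting or scaling the signals (open symbols and crosses). Trim7 falls to 0.57 in the authors' value table, and Gpx1 to -2.10 with median centring, and no gene crosses 0.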

How the data were processed

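RNA of mouse splenocytes was measured on 8 Illumina beadchip arrays. The authors deposited probe signal intensities with a detection p-value for each, non-normalized per the file headers, and also deposited a log2 value table, which per the submitters' processing notes was made with lumi (version not given). In R 4.3.3 with limma 3.58.1, neqc with an offset of 16 took the background from the detection p-values, applied quantile normalization and returned log2 values. Each array had 7710 to 8633 probes detected at p under 0.01 (31.3% to 35.1%), with a median signal of 69.75 to 81.5. The number of arrays limits the precision. Probes were named from the platform annotation (20984 with 1 symbol, 1 with several, 3628 unnamed here), and 20968 symbols were matched through Entrez identifiers. Genes detected on at least 1 array were kept, with the probe of highest mean, which left 7456.

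Responses came from limma with a mean for each of 7 groups. Its single residual degree of freedom was the p53-null control pair, whose spread stood in for that of the lone arrays (prior SD 0.292 on 4.78 prior degrees of freedom). The shared amsacrine difference, a single value fitted to all genotypes, came from an additive model that left out the irradiated array (residual degrees of freedom: 3). Its residual spread also holds differences in response between genotypes. All p-values are 2-sided, and adjusted ones use Benjamini-Hochberg over all genes. Where a gene was undetected on 1 side, "at least" marks a lower bound on its fold: the detected side's mean is divided by the lowest detected signal of the other array, or by the gene's own value there if higher.

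The genes, lists and tests were chosen with earlier results of these data known. All 9 genes are named with every probe, Mdm2 and Cdkn1a for reference, the 2 genes of each p53 or stress list with the largest WT response (cell type and mitotic lists by medians), and the 3 genes most correlated with each member detected on all arrays. Alternatives were other backgrounds and scalings, the authors' table, other detection filters, the mean of a gene's detected probes, leaving out each p53-null control and, chosen after seeing the data, undetected genes at their bounds (0 where no bound could be set). The tests were tested on simulated data.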

Additional observations from a re-analysis of the deposited data

How the results depend on the processing

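No paired analysis was possible because the groups share only replicate number 1. Of 869 values of the 9 genes under other settings, 827 kept their direction and side of the threshold, 27 lost a call, 5 gained one and 10 reversed. Few values held a call as reported, all of them in Δ122p53 minus WT cells, so a call could be lost only there. The 27 are thus not to be read as a share of the 869, and how often each call was kept is given above. Of 254 counts, 201 stayed within 1.5 times and 53 did not. The reversals were small: Trim7's shared amsacrine difference became 0.04 (offset 50), 0.02 (authors' table), 0.11 and 0.14 (without either p53-null control) and 0.01 (without the Δ122p53 arrays). Gpx1 in p53-null minus WT amsacrine cells became 0.14 (cyclic loess) and 0.15 (median centring), Ddb2 there 0.48 (mean of probes), and Polk 0.37 and 0.29 in the p53-null amsacrine and irradiation responses without p53-null control 1 (-1.06 and -1.14 without control 2). Polk was undetected on each array behind its 0.37 and 0.29.

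Of the 10 calls in the p53-null amsacrine response, 0 passed with offset 50, no background correction, cyclic loess, the authors' table or no detection filter, 32 among genes detected on all arrays and 63 with the mean of probes. Members at least 2-fold lower there were 4 by fitted values, but 2 with undetected genes at their bounds (a setting chosen after seeing the data), with either other background, in the authors' table and among genes detected on all arrays, and after irradiation 2 by fitted values, but 1 in those settings. For Δ122p53 minus WT controls the 231 calls became 58 (offset 50), 113 (no background correction), 0 (cyclic loess, authors' table, no filter) and 461 (mean of probes). The 1 member called there became 0 in those settings and among genes detected on all arrays, and 2 with the mean of probes. The members at least 2-fold lower there, 1 as reported, were 2 with median centring and 0 in the authors' table and among genes detected on all arrays.

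For Δ122p53 minus WT amsacrine, the 305 calls became 180 (offset 50), 148 (detected on all arrays) and 0 (cyclic loess, authors' table, no filter), and the 6 members called became 0 in those last 3, with 4 at least 2-fold lower among genes detected on all arrays. Of the calls, 74.4% were higher, but 85% with offset 50 and 89.6% with median centring. On the control arrays the share was 48.9%, and 63.8% with offset 50. WT calls, 0 as reported, were 3 with the mean of probes, and p53-null minus WT amsacrine calls 1. With median centring 2 members were at least 2-fold lower in WT. Among genes detected on all arrays 3 members were at least 2-fold higher in WT, 3 in WT alone, and 3 were lower in p53-null than WT amsacrine cells. The 154 shared amsacrine calls became 42 (authors' table), 93 (no filter), 1 without p53-null control 1, 1 without control 2 and 1265 without the Δ122p53 arrays. The causes were not tested, except that the filter on all arrays leaves 5 of the 9 genes.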
